A study of Mus musculus with 14 samples.

Results

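Replication-dependent histone genes encode the linker histone H1 and the core histones H2A, H2B, H3 and H4 that package newly copied DNA. They were taken as every annotated mouse gene whose symbol begins with Hist1h, Hist2h, Hist3h or Hist4h, which gave 70 of 54446 gene identifiers: 6 H1, 20 H2A, 19 H2B, 12 H3 and 13 H4 genes. All 70 passed the filter on low values, so no gene was left out. Of these, *Hist1h2aj*, *Hist1h2al* and *Hist3h2bb-ps* are annotated as pseudogenes. RNA was measured in 14 bulk libraries of E14 mouse embryonic stem (ES) cells, grown without feeders on gelatin in serum with LIF. The 8 wild-type libraries covered 0, 24, 72 and 144 h in the mTOR inhibitor INK128 (mTORi, 200 nM), a treatment that places ES cells in a dormant, diapause-like state. A further 6 libraries carried the label *Tet1/2* DKO, with guides against *Tet1* and *Tet2*, and covered 0, 24 and 72 h. Each of the 7 groups had 2 replicates. The DKO line was raised by Cas9 cutting in E14 cells and isolation of clones from sorted single cells. The comparisons ask how histone mRNA levels moved with time under mTORi, and whether they did so alike in both lines.

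Production of these mRNAs is tied to S phase, the part of the cell cycle in which DNA is copied. Most of them end in a conserved stem-loop in place of a poly(A) tail, which is bound by SLBP and cut under guidance of the U7 snRNP, and the genes are read in nuclear histone locus bodies organised around NPAT. Ribosomal RNA was removed here by depletion, not by selecting poly(A) tails, so mRNAs that lack a tail were kept. In bulk RNA, fewer cells in S phase and less histone mRNA per cell cannot be told apart.

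In mm10 coordinates (GRCm38), 55 genes lay in the large cluster at chr13:21715763-23934851, and *Hist1h2al* stood apart on the same chromosome at chr13:51202727-51203065. A further 10 genes lay at chr3:96219865-96270132, 3 at chr11:58948920-58956830 and 1, *Hist4h4*, at chr6:136801553-136804415. In the GENCODE M21 transcripts, 22 genes held, within the last 150 bases, a stem of 6 bases that starts with GG and closes on a loop of 4 bases that starts with TT. These were 8 H2A, 6 H2B, 5 H4 and 3 H3 models. The 11 models that hold coding sequence alone cannot show it, and a missing match says only that these letters are not in the annotated model. The elements of 6 genes from these 4 classes are printed because the stem-loop is the feature that sets this mRNA class apart, with stem and loop in capitals.

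Hist1h2ag (H2A): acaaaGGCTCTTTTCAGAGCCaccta
Hist1h2bj (H2B): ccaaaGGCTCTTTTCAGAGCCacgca
Hist1h2bk (H2B): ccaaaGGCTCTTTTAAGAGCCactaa
Hist1h2bm (H2B): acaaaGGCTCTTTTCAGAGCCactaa
Hist1h3b (H3): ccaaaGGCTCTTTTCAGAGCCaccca
Hist1h4h (H4): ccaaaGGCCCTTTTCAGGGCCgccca

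The core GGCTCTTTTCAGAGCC was the most frequent and occurred in 13 of the 22, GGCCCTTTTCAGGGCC in 4 and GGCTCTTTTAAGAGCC in 3. *Hist1h2bj* and *Hist1h2bm*, which showed some of the largest falls under mTORi, carried the same core as *Hist1h2ag* and *Hist1h3b*.

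All 70 genes were matched to RefSeq, and promoter windows were available for 62. The windows from 250 bases before to 50 after the start were searched on both strands for 4 motifs. TATAAA, the TATA box, was present in 35 of 62 histone windows (56.5%) and in 15.7% of 27025 gene windows overall. CCAAT, read by the factor NF-Y, was in 53 (85.5%) against 41.1% overall. The octamer ATTTGCAT, a site for POU factors known from H2B promoters, was in 14 (22.6%) against 1.97% overall. It was found in 7 of 16 H2B and 7 of 18 H2A windows, and in none of the 6 H1, 10 H3 and 12 H4 windows. AAACACA, an element known from H1 promoters, was in 5 of the 6 H1 windows and in 9 of 62 overall (14.5%, against 8.22% of all windows). The H4 genes differed from the other classes in CCAAT, with 3 of 12 windows against all 50 of the others. The 150 bases before the start are printed, 5′ to 3′ on the strand of the gene (RefSeq, GRCm38.p6), for a member of each class that the results below turn on. Capitals mark matches to the 4 motifs on either strand, which are descriptions of the letters and not shown binding sites. No printed match overlaps another.

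Hist1h2bm (H2B), chr13:21721894-21722043, plus strand: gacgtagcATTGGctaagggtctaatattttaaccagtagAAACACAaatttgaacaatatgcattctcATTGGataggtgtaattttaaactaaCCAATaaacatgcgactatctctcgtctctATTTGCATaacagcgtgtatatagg
Hist1h2bj (H2B), chr13:22043048-22043197, plus strand: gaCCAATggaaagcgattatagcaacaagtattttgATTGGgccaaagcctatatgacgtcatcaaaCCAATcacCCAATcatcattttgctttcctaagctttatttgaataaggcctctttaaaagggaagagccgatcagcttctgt
Hist1h2ag (H2A), chr13:22042950-22043099, minus strand: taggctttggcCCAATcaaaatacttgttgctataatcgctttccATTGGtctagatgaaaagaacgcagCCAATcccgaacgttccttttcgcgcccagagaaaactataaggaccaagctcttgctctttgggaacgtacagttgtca
Hist1h1b (H1), chr13:21780626-21780775, minus strand: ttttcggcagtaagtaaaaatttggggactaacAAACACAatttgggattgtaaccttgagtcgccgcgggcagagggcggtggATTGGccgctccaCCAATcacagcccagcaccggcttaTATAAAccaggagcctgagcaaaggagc
Hist1h3e (H3), chr13:23562386-23562535, minus strand: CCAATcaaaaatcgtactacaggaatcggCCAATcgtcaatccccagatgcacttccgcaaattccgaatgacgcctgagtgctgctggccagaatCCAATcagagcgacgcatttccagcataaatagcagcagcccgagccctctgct
Hist1h4k (H4), chr13:21750554-21750703, minus strand: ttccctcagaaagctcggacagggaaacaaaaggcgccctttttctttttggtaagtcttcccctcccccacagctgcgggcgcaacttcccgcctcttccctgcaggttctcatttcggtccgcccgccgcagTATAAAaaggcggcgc

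The sequences also bear on what was counted. More than 50% of the 50-base words of 34 transcripts recur in other annotated transcripts (14 H2A, 8 H2B, 8 H3, 4 H4 and no H1), so the counting could divide reads between near-identical copies. *Hist2h2aa2* shares 100% of its words, all of them with *Hist2h2aa1*, which shares 89.4%. *Hist2h3c1* also shares 100% over all annotated transcripts, but only 34.7% with its closest member, *Hist2h3c2*. *Hist1h2br* shares 88.65% with *Hist1h2bq*. Another annotated gene overlaps 26 members, 7 on the same strand and 23 on the opposite strand. Sums over a class are less exposed to such division than single copies.

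The library labels were checked on the targeted genes. *Tet2* was at 210 and 203 spike-in normalized TPM in the wild-type 0 h libraries and at 53.9 and 52.7 in those labelled DKO (log2 fold change −1.93 ± 0.28 s.e., adjusted p = 0.0152), whereas *Tet1* was at 416 and 403 against 427 and 349 (−0.08, adjusted p = 0.909). The deposited value sums the whole gene and does not resolve the exons between the guides, so *Tet1* TPM do not check its label. The study's methods state that the knockouts of both genes were checked by western blot of the proteins. The groups are called by their label below. The 8 ES cell markers summed to 4126 to 6326 deposited TPM in every library, and none was at 0 in both libraries of a group. The 5 primitive endoderm markers summed to 57.8 to 105 TPM in wild type at 24 h, 15.6 to 44.4 in DKO at 24 h, and 4.71 to 21.9 in the other groups. The 5 trophectoderm markers summed to 66.5 to 74.5 at 24 h in wild type, 38.8 to 64.0 at 24 h in DKO, and 14.7 to 53.5 in the other groups. The 4 fibroblast markers summed to 1.28 to 17.7 TPM and the 3 neuroectoderm markers to 5.35 to 17.4 in all libraries. Their part in the results at 24 h was not tested.

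Levels are given as spike-in normalized TPM, in which TPM, already scaled per length, are multiplied by a library factor taken from the study's ERCC normalization and ranging from 1 to 2.81. Deposited TPM, which sum to 1000000 in each library, are called plain TPM. On the spike-in scale the histone mRNAs were abundant. The mean over the 14 libraries was at least 100 TPM for 62 genes and at least 1000 TPM for 27, and it ran from 1.23 (*Hist2h2be*) to 3124 (*Hist1h4k*). The 10 most abundant genes held 34.3% of all histone TPM. The highest means of each class belonged to *Hist1h1a* (2389 TPM), *Hist1h1b* (1349) and *Hist1h1c* (929) for H1, and to *Hist2h2aa2* (1490), *Hist1h2ak* (1485) and *Hist1h2ab* (1195) for H2A. For H2B they were *Hist1h2br* (2173), *Hist1h2bg* (2004) and *Hist1h2bk* (1800), for H3 *Hist1h3h* (1470), *Hist1h3e* (1367) and *Hist1h3i* (1214), and for H4 *Hist1h4k* (3124), *Hist1h4n* (2206) and *Hist1h4h* (1958).

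Summed over the 70 genes, wild-type cells held 70424 and 62942 spike-in normalized TPM of histone mRNA at 0 h. The sums were 46177 and 52600 at 24 h, then 53913 and 39112 at 72 h and finally 37705 and 36150 by 144 h. Every treated wild-type library was below both 0 h libraries, while the 24 h and 72 h libraries overlapped each other. In the libraries labelled DKO the sums were 104717 and 106472 at 0 h, then 67089 and 45240 at 24 h and finally 73791 and 57541 by 72 h. Both DKO libraries at 0 h lay above all 12 others. As a ratio of group means, the wild-type sum was at 0.741 of its 0 h level at 24 h, then 0.698 at 72 h and finally 0.554 by 144 h, and the DKO sum at 0.532 at 24 h and 0.622 at 72 h. These sums carry no test. On plain TPM the same ratios were 0.959, 0.932, 1.13, 0.772 and 0.761, so that the sign turned for wild type at 144 h. As a share of all plain TPM, histone mRNA made up 3.16% ± 0.25 (SD, n = 2) in wild type at 0 h, 3.57% ± 0.0655 at 144 h, 4.10% ± 0.539 in DKO at 0 h and 3.12% ± 0.296 in DKO at 72 h.

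**Figure D1:**
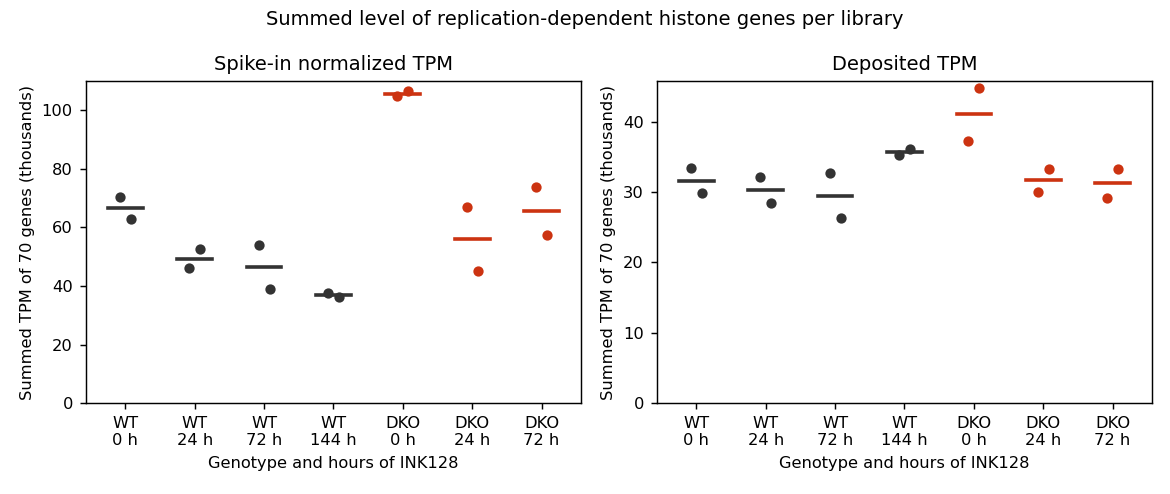
Summed TPM of the 70 histone genes (vertical axis, in units of 1000 TPM) in each library by genotype and hours of INK128, on the spike-in scale (left) and as deposited (right). Points are libraries and bars are means of 2. On the spike-in scale wild type ran from 66683 at 0 h to 36927 at 144 h and DKO at 0 h stood highest at 105595, whereas on the deposited scale the wild-type 144 h libraries were above the 0 h libraries.

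After 24 h of mTORi, 12 of the 70 genes were called lower in wild type (Benjamini-Hochberg adjusted p under 0.05 over 18232 genes) and none higher, where 8.73% and 1.25% of all genes tested were called in these directions. The unadjusted p was under 0.05 for 27 members and for 26.7% of all genes. The median log2 fold change of the members was −0.46, against −0.33 over all genes. The 12 comprised 8 of the 19 H2B genes (*Hist1h2bc*, *Hist1h2be*, *Hist1h2bh*, *Hist1h2bj*, *Hist1h2bm*, *Hist1h2bp*, *Hist2h2bb* and *Hist3h2bb-ps*), 2 of 13 H4 genes (*Hist1h4a*, *Hist1h4b*), 1 of 20 H2A genes (*Hist1h2an*) and 1 of 12 H3 genes (*Hist2h3c2*). No H1 gene was called. With the replicate number as a block within each genotype 24 members were called lower, 13 of them H2B, beside 25.7% of all genes. The log2 ratio of summed TPM of the members was −0.43. With 1 library left out it ran from −0.53 (without WT 24 h replicate 2) to −0.34 (without WT 24 h replicate 1). On plain TPM 13 were lower, 9 of them H2B, and 7 were higher (*Hist1h1c*, *Hist1h1d*, *Hist1h2ae*, *Hist1h3e*, *Hist1h4m*, *Hist1h4n* and *Hist3h2a*), where 14.1% and 15.8% of all genes were called lower and higher on that scale.

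*Hist1h2bm* (chr13:21722044-21722567, plus strand), an H2B gene, was at 732 and 639 TPM at 0 h and at 222 and 282 TPM at 24 h. Its later wild-type levels were 352 and 265 TPM at 72 h and 249.1 and 243 TPM at 144 h. All 6 treated libraries lay below both at 0 h, and the log2 fold change at 24 h was −1.45 ± 0.28 (adjusted p = 0.0034). *Hist1h2bj* (chr13:22043214-22043676, plus strand) went from 1578 and 1407 TPM to 548 and 622 TPM at 24 h, then 738 and 536 at 72 h and finally 484 and 456 by 144 h, again without overlap (−1.35 ± 0.27 at 24 h, adjusted p = 0.00427). *Hist3h2bb-ps* (chr11:58954048-58954512, minus strand), annotated as a processed pseudogene, went from 30.4 and 34.2 TPM to 10.3 and 12.3 at 24 h (−1.44 ± 0.41, adjusted p = 0.0311, but 0.149 with no filter) and to 5.95 and 10.7 at 144 h.

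The largest fitted values above 0 at 24 h belonged to genes that did not pass the test. *Hist1h3e* (chr13:23561534-23562369, minus strand), an H3 gene, was at 1129 and 951 TPM at 0 h and at 1466 and 1702 at 24 h (0.61 ± 0.27, adjusted p = 0.16, but 0.98 and adjusted p = 0.00307 on plain TPM). Its level was 1293 and 872 TPM at 72 h and 913 and 875 TPM at 144 h, so the 24 h libraries were its highest in wild type. *Hist3h2a* (0.37, adjusted p = 0.534, 0.73 and adjusted p = 0.0117 on plain TPM) was at 103 and 103 TPM at 0 h and 108 and 163 TPM at 24 h. The H2A gene *Hist3h2a* and *Hist3h2bb-ps* start within 172 bases of each other on opposite strands.

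Across the classes, the H2B genes had the lowest median at 24 h, −0.93, with −0.38 for H1, −0.36 for H2A, −0.33 for H3 and −0.17 for H4. On plain TPM the H2B median was −0.56 and the others lay between −0.01 and 0.20. The H2B sum was at 0.565 of its 0 h level, where the sums of the other classes were at 0.802 to 0.833 (plain TPM, 0.727 against 1.04 to 1.08). By shared sequence, the median was −0.93 for the 11 H2B genes with at most 50% of words shared and −0.97 for the other 8. H2B genes with the octamer in the promoter window had a median of −0.87 (7 genes) and the 9 without it a median of −0.9997. For the H2A genes it was −0.38 with the octamer (7 genes) and −0.35 without (11 genes). The H2B order was the same at 72 h in wild type (−0.85 with, −0.91 without) and in DKO (−0.91 and −0.96). It turned in wild type at 144 h (−1.28 and −1.19) and in DKO at 24 h (−1.395 and −1.321).

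**Figure D2:**
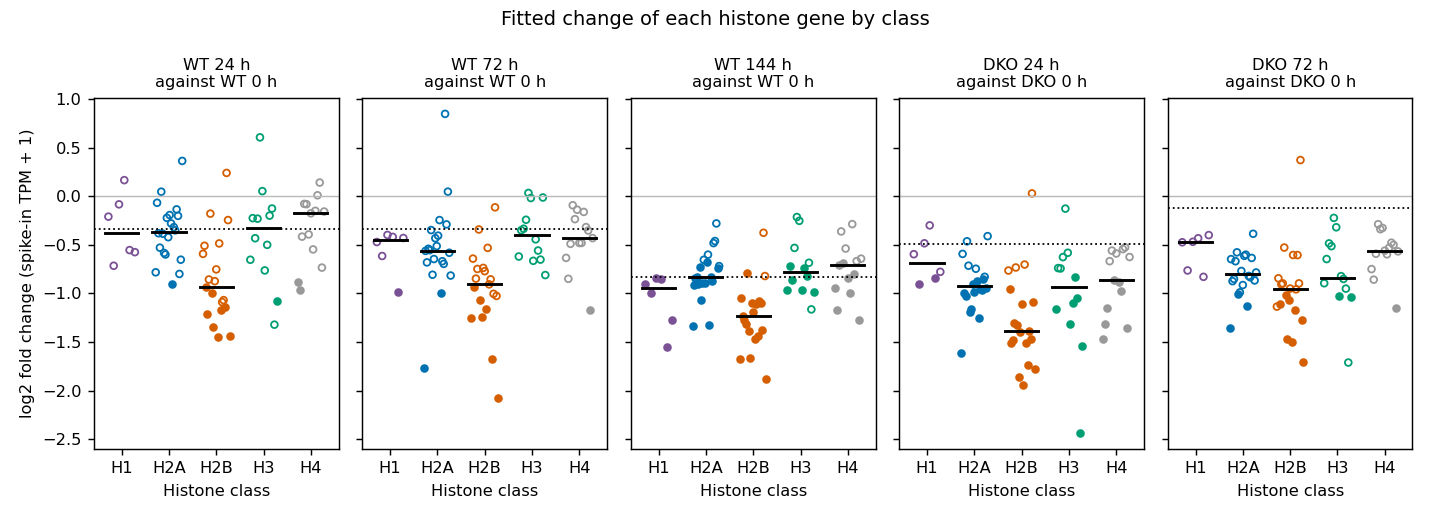
Fitted log2 fold change (spike-in TPM + 1) of each histone gene by class for the 5 comparisons with 0 h, with called genes filled, class medians as black bars and the median of all genes as a dotted line. *Hist2h2aa1*, which was at 0 in 1 DKO library, is beyond the axis in the DKO panels. The H2B medians are the lowest of the 5 classes in every panel, and on plain TPM, not drawn, the fitted values at WT 144 h were below 0 for 24 of 70 genes.

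H2B made up 28.8% and 29.8% of histone TPM in the wild-type libraries at 0 h, 21.2% and 23.3% at 24 h, 21.6% and 24.7% at 72 h, and 23.4% in both libraries at 144 h. These shares do not depend on the spike-in factor. All 6 treated libraries were below both untreated ones. In the libraries labelled DKO the share was 31.0% and 26.9% at 0 h, then 22.8% and 23.1% at 24 h and finally 26.5% and 23.5% by 72 h. There, too, the treated libraries lay below both at 0 h, with 26.5% at 72 h close to 26.9% at 0 h. The ratio of H2B to H2A TPM in wild type was 1.35 in each 0 h library, 0.913 and 0.983 at 24 h, then 0.922 and 1.10 at 72 h and finally 0.997 and 1.03 by 144 h. In DKO it was 1.53 and 1.23 at 0 h, then 0.931 and 1.08 at 24 h and finally 1.29 and 1.09 by 72 h, where the 72 h and 0 h libraries overlapped.

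**Figure D3:**
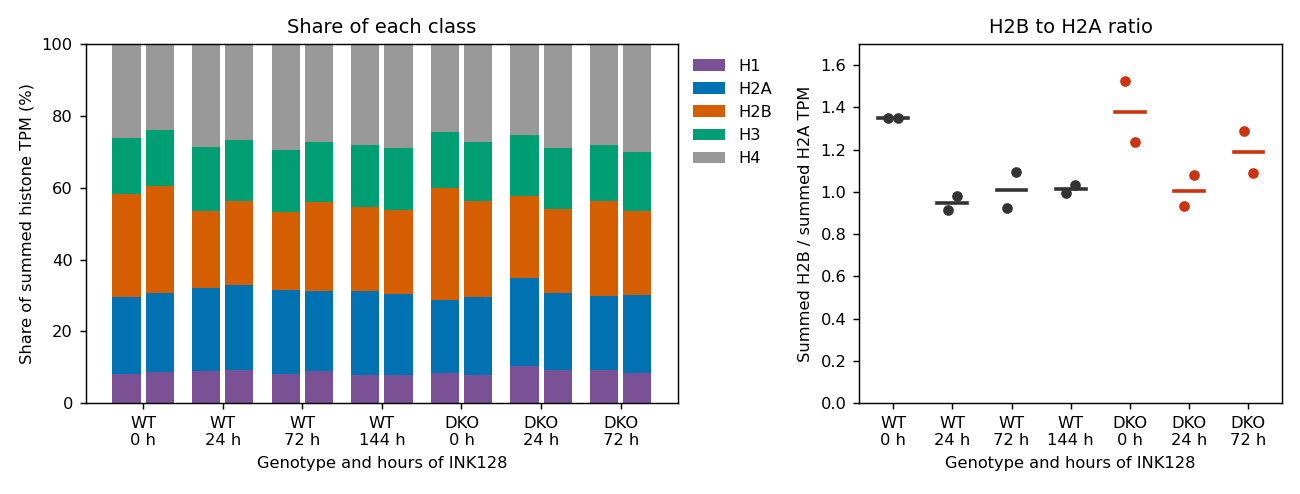
Share of summed histone TPM held by each class in each library (left, percent) and the ratio of summed H2B to summed H2A TPM (right). Bars and points are libraries, and lines are means of 2. Neither measure depends on the spike-in factor. In wild type the ratio was 1.35 at 0 h and no more than 1.10 in any treated library, and in DKO the 72 h and 0 h libraries overlapped.

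Many H2A and H2B genes are neighbours that are read away from each other from a shared gap. Of these, 14 pairs had starts within 500 bases. In wild type at 24 h the H2B gene had the lower fitted value in 12 of 14 pairs (medians −0.40 for H2A and −0.90 for H2B), at 72 h in 10 and at 144 h in 12. In DKO it was lower in 11 pairs at 24 h and in 9 at 72 h. *Hist1h2ag* and *Hist1h2bj*, whose windows are printed above, are separated by 269 bases at chr13:22042945-22043213. The fitted value at 24 h was −0.58 for *Hist1h2ag* and −1.35 for *Hist1h2bj*. For *Hist1h2aj* and *Hist1h2bm*, 235 bases apart, it was −0.42 and −1.45. *Hist1h2aj* is annotated as an unprocessed pseudogene and shares 93.1% of its words with *Hist1h2ai*. The exceptions at 24 h were *Hist1h2aa* with *Hist1h2ba* and *Hist2h2ac* with *Hist2h2be*. Genes of a pair share libraries, and no test was run over pairs.

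**Figure D4:**
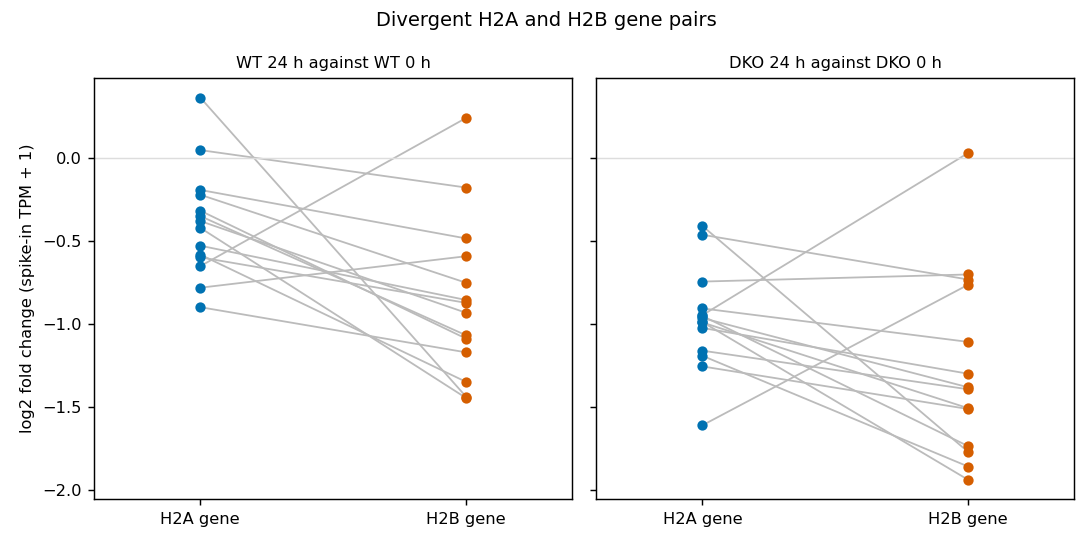
Fitted log2 fold change (spike-in TPM + 1, vertical axis) of the H2A gene and the H2B gene of the 14 divergent pairs at 24 h against 0 h, in wild type (left) and in libraries labelled DKO (right), with a line joining the genes of a pair. Lines that slope down to the right have the lower value in H2B, as in 12 of 14 pairs in wild type and 11 of 14 in DKO.

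At 72 h of mTORi, 11 members were called lower in wild type and none higher, where 7.6% and 0.697% of all genes were called. The median was −0.56 against −0.33 over all genes. Of the 11, 7 were H2B genes (median −0.91, or −0.48 on plain TPM), 2 H2A, 1 H1 and 1 H4. The block within genotype gave 31 lower (25.4% of all genes). The log2 ratio of summed TPM of the members was −0.52. With 1 library left out it ran from −0.77 (without WT 72 h replicate 1) to −0.31 (without WT 72 h replicate 2). *Hist1h2aa* (chr13:23934462-23934851, plus strand), which is known as a testis H2A gene, was at 77.1 and 67.0 TPM at 0 h, 32.5 and 52.6 at 24 h, then 25.5 and 16.4 at 72 h and finally 33.5 and 23.1 by 144 h. Its treated libraries were all below those at 0 h, and it passed the test at 72 h (−1.76, adjusted p = 0.00471) and at 144 h (−1.34, adjusted p = 0.00412, the latter not on plain TPM).

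At 144 h, 52 of the 70 genes were called lower in wild type and none higher, beside 50.5% and 0.461% of all genes. All 70 fitted values were below 0, with a median of −0.88 against −0.83 over all genes. Relative to that general shift the histone genes as a whole stood little apart. On plain TPM the member median was 0.13 (0.05 over all genes), 24 of 70 values were below 0, and 5 genes were called lower and 5 higher, beside 11.7% and 15.6% of all genes. The 5 lower were *Hist1h1e*, *Hist1h2ba*, *Hist1h2bj*, *Hist1h2bm* and *Hist1h2bp*, and the 5 higher were *Hist1h2al*, *Hist1h3d*, *Hist1h3e*, *Hist1h3f* and *Hist2h2aa2*. On the spike-in scale the log2 ratio of summed TPM of the members was −0.85. With 1 library left out it ran from −0.93 (without WT 0 h replicate 2) to −0.77 (without WT 0 h replicate 1). On that scale the calls covered all 6 H1 genes (median −0.95), 14 of 20 H2A (−0.83), 17 of 19 H2B (−1.23), 7 of 12 H3 (−0.78) and 8 of 13 H4 genes (−0.71). On plain TPM the H2B median was −0.20, and those of H1, H2A, H3 and H4 were 0.08, 0.19, 0.25 and 0.32.

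*Hist1h1a* (chr13:23763666-23764406, plus strand), the most abundant H1 gene, was at 2497 and 2293 TPM at 0 h, 1914 and 2240 at 24 h, then 1972 and 1513 at 72 h and finally 1308 and 1250 by 144 h. Both 144 h libraries were its lowest, and it fell by 0.90 on the log2 scale (adjusted p = 0.0151, but 0.12 on plain TPM). *Hist1h1b* (−0.99, adjusted p = 0.00864) and *Hist1h1c* (−0.85, adjusted p = 0.0206) were also called, and both were above 0 on plain TPM, at 0.04 and 0.18. Of the 3 most abundant H2A genes, *Hist1h2ab* (−0.91, adjusted p = 0.0118) and *Hist1h2ak* (−0.67, adjusted p = 0.0434) were called and *Hist2h2aa2* was not (−0.46, adjusted p = 0.174), and all of these were above 0 on plain TPM (0.11, 0.35 and 0.57 in that order). With no filter on low values the calls of *Hist1h1a* (adjusted p = 0.0529), *Hist1h1c* (adjusted p = 0.0676) and *Hist1h2ak* (adjusted p = 0.0803) were lost.

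The abundant H2B genes *Hist1h2br* (−1.10, adjusted p = 0.0184), *Hist1h2bg* (−0.79, adjusted p = 0.0257) and *Hist1h2bk* (−1.10, adjusted p = 0.00423) were lower at 144 h. None was called on plain TPM, where *Hist1h2br* was at −0.070, *Hist1h2bg* at 0.23 and *Hist1h2bk* at −0.074. With no filter on low values *Hist1h2br* (adjusted p = 0.12) and *Hist1h2bg* (adjusted p = 0.0687) also lost the call. The largest negative values of all members were those of *Hist3h2bb-ps* (−1.88 ± 0.41, adjusted p = 0.00165, but −0.90 and adjusted p = 0.0608 on plain TPM) and *Hist1h2ba* (−1.68 ± 0.37, adjusted p = 0.00165). *Hist1h2ba* (chr13:23933773-23934156, minus strand), the testis H2B gene that neighbours *Hist1h2aa*, was at 101 and 108 TPM at 0 h and at 37.1 and 27.5 TPM at 144 h.

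Among the abundant H3 genes *Hist1h3h* (−0.73, adjusted p = 0.0275) and *Hist1h3i* (−0.82, adjusted p = 0.0169) were called, at 0.29 and 0.20 on plain TPM, whereas *Hist1h3e* was not (−0.21, adjusted p = 0.521, and 0.81 on plain TPM). *Hist1h3f* (chr13:23544052-23545312, plus strand) was also among the values nearest 0 (−0.25, adjusted p = 0.429, 0.77 on plain TPM), with 574 and 468 TPM at 0 h and 439 and 430.5 TPM at 144 h. *Hist1h3e* shares 63.15% of its words with *Hist1h3f*, so their values may not be separate. None of the 3 most abundant H4 genes was called, whereas 8 of the other 10 were. *Hist1h4k* (chr13:21750194-21750505, minus strand) was at 3552 and 2350 TPM at 0 h, which differed more than the 2343 and 2397 TPM at 144 h (−0.29, adjusted p = 0.427, 0.74 on plain TPM). *Hist1h4n* was at −0.67 (adjusted p = 0.0588, 0.0248 with the block) and *Hist1h4h* at −0.54 (adjusted p = 0.0983, 0.0422 with the block), and on plain TPM they were at 0.36 and 0.49.

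In the libraries labelled DKO, 44 members were called lower after 24 h of mTORi and none higher, where 18.7% and 0.505% of all genes were called, and the median was −0.95 against −0.49 over all genes. The calls covered 15 of 19 H2B (median −1.38), 13 of 20 H2A (−0.93), 7 of 12 H3 (−0.94), 7 of 13 H4 (−0.86) and 2 of 6 H1 genes (−0.69). On plain TPM 21 were called lower (13.3% of all genes), and the H2B median was −0.81. On the spike-in scale the log2 ratio of summed TPM of the members was −0.91. With 1 library left out it ran from −1.22 (without DKO 24 h replicate 1) to −0.65 (without DKO 24 h replicate 2). *Hist1h2bm* was at 1167 and 1125 TPM at 0 h, then 389 and 228 at 24 h and finally 457 and 358 by 72 h (−1.94 at 24 h, adjusted p = 0.000259). *Hist1h2bj* was at 2503 and 2524 TPM at 0 h, then 847 and 564 at 24 h and finally 1044 and 791 by 72 h. For both genes the treated libraries were far below those at 0 h, and replicate 1 was above replicate 2 in each treated group. The library factors had the same order, at 2.24 and 1.36 at 24 h and at 2.53 and 1.73 at 72 h. On plain TPM the summed histone TPM had the opposite order, at 30014 and 33335 at 24 h and at 29128 and 33313 at 72 h. *Hist1h3e*, by contrast, was at 1696 and 1872 TPM at 0 h and 1948 and 1367 TPM at 24 h, with overlap.

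At 72 h in DKO 14 members were called lower and none higher, with 2.95% and 0.713% of all genes called and medians of −0.80 and −0.12. With the block within genotype 39 were lower (13.2% of all genes) and on plain TPM 28 (9.06% of all genes). On the spike-in scale the log2 ratio of summed TPM of the members was −0.69. With 1 library left out it ran from −0.88 (without DKO 72 h replicate 1) to −0.52 (without DKO 72 h replicate 2). The 14 comprised 8 H2B, 3 H2A, 2 H3 and 1 H4 gene. The largest fitted negative values were *Hist2h3c1* (−1.71, adjusted p = 0.232), which did not pass, and *Hist3h2bb-ps* (68.3 and 42.5 TPM at 0 h, 17.0 and 14.8 TPM at 72 h, −1.70, adjusted p = 0.0282, but 0.117 with no filter). The largest positive value besides *Hist2h2aa1*, described below, was that of *Hist2h2be* (0.37, adjusted p = 0.592), whose levels never exceeded 2.39 TPM. Over all 5 comparisons with 0 h in both lines, 6 genes were called lower each time: *Hist1h2an*, *Hist1h2bc*, *Hist1h2bh*, *Hist1h2bj*, *Hist1h2bm* and *Hist3h2bb-ps*. The same held for 1.64% of all genes. With the block within genotype 21 members and 8.47% of all genes were called lower each time, and on plain TPM 3 members and 3.85% of all genes. With no filter on low values 2 members were called lower in wild type at 72 h and 2 in DKO at 72 h, so no more than 2 could then be called each time. Of the other members 4 were called in 4, 9 in 3, 19 in 2, 22 in 1 and 10 in none, where 46.9% of all genes were called in none. With the block 3 members were called in none (28.4% of all genes), and on plain TPM 39 (76.8%). The comparisons within a line share their 0 h libraries.

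Before treatment, the libraries labelled DKO held 1.58 times the histone TPM of wild type (1.30 times on plain TPM), and the groups did not overlap on the spike-in scale. No member was called higher or lower between the lines at 0 h, where 0.0274% and 0.0165% of all genes were called. The unadjusted p was under 0.05 for 53 of 70 members and for 8.35% of all genes, all but 3 members were fitted above 0, and the median was 0.71 against 0.29 over all genes. *Hist1h2bm*, for instance, was at 1167 and 1125 TPM in DKO and 732 and 639 TPM in wild type. By class the ratio of sums was 1.53 for H1, 1.54 for H2A, 1.57 for H2B, 1.63 for H3 and 1.63 for H4. On plain TPM these ratios were 1.25, 1.265, 1.28, 1.34 and 1.34.

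At 24 h no member was called between the lines in either direction (0.011% of all genes higher, 0.0329% lower) and none had an unadjusted p under 0.05 (4.14% of all genes). The sums overlapped, at 67089 and 45240 TPM in DKO and 46177 and 52600 TPM in wild type. At 72 h 1 member was called higher and none lower, with 0.302% and 0.0274% of all genes called, and 22 members and 23.0% of all genes had an unadjusted p under 0.05. The median of the members, 0.49, equalled that of all genes, 0.49. The called gene was *Hist1h2aa*, at 64.3 and 67.4 TPM in DKO and 25.5 and 16.4 TPM in wild type at 72 h (1.64 ± 0.34, adjusted p = 0.0412). Its call was lost when libraries were centred on their median (adjusted p = 0.0528), with a pseudocount of 0.1 (adjusted p = 0.0543) and with no filter on low values (adjusted p = 0.138). It was also lost without any 1 of the WT 72 h, WT 144 h or DKO 72 h libraries. At the other times it was at 177 and 163 TPM in DKO against 77.1 and 67.0 in wild type (0 h), and at 77.3 and 38.9 against 32.5 and 52.6 (24 h). *Hist1h2br* had the next largest value at 72 h (1.35, adjusted p = 0.105), with 3318 and 1875 TPM in DKO and 1155 and 824 TPM in wild type. It shares 88.65% of its words with *Hist1h2bq*. In wild type at 72 h against 0 h the fitted value was −1.675 for *Hist1h2br* and −0.85 for *Hist1h2bq*. A division of reads between these copies was not tested.

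The response to mTORi itself did not differ between the lines for any member in the test of that difference. At 24 h the difference of the responses was below 0 for 69 of 70 members, with a median of −0.51 against −0.19 over all genes, and no member was called (0.00548% of all genes were called lower and none higher). A single member had an unadjusted p under 0.05 (1.22% of all genes). At 72 h the median was −0.17 against 0.21, no member had an unadjusted p under 0.05 (0.993% of all genes), and no gene of the 18232 was called. The DKO libraries at 24 h held 67089 (replicate 1) and 45240 TPM (replicate 2), and leaving out either gave no call. A difference of the responses was not detectable in these libraries, which does not show that it is absent.

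Some genes of the chr3 cluster that share sequence with other transcripts varied widely within groups. *Hist2h2aa1* differed widely between replicates, with 205 and 991 TPM in wild type at 0 h, 158 and 1065 at 24 h, then 966 and 685 at 72 h and finally 782 and 133 by 144 h. In DKO it was at 259 and 0 TPM at 0 h, then 1227 and 124 at 24 h and finally 1188 and 145 by 72 h. It is listed at 0 in DKO 0 h replicate 2, so no fold is given against that group, and it did not pass the test there at 24 h (adjusted p = 0.0511) or 72 h (adjusted p = 0.107). With the block within genotype it was the only member called higher in DKO, at both times (adjusted p = 0.000894 and 0.00238). Its near-identical neighbour *Hist2h2aa2* had closer replicates, with 1617 and 1464 TPM in wild type at 0 h and 1091 and 1147 TPM at 144 h. *Hist2h3c1* likewise ranged from 12.2 to 385 TPM, while *Hist2h3c2* went from 525 and 495 TPM at 0 h to 227 and 257 TPM at 24 h in wild type. *Hist2h3c1* shares 34.7% of its words with *Hist2h3c2*. *Gm20634* overlaps both *Hist2h2aa1* and *Hist2h3c1* on the same strand, and its part in their values was not tested. Between the lines at 72 h, *Hist2h2aa1* (−0.96, adjusted p = 0.662) and *Hist2h3c1* (−0.72, adjusted p = 0.506) had the most negative fitted values of all members, and neither passed the test.

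**Figure D5:**
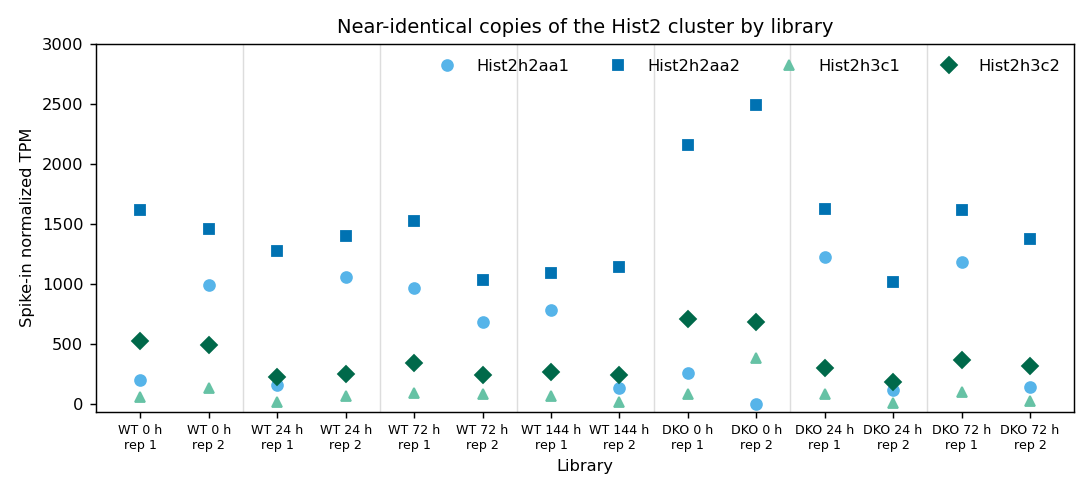
Spike-in normalized TPM per library of *Hist2h2aa1*, *Hist2h2aa2*, *Hist2h3c1* and *Hist2h3c2* in the chr3 cluster, with replicates of a group side by side. *Hist2h2aa1* lies between 0 and 1227 TPM with wide gaps within groups, while *Hist2h2aa2* lies between 1020 and 2489 TPM.

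Some members are known to make polyadenylated mRNA, which can be produced outside S phase. The 5 such genes fixed for description were *Hist1h1c*, *Hist1h2bc*, *Hist2h2be*, *Hist3h2a* and *Hist4h4*. At 24 h in wild type 1 of these 5 was called lower and none higher, whereas on plain TPM 2 were higher (15.8% of all genes) and none lower (14.1%). At 144 h 2 were lower (4 with the block within genotype, and none in either direction on plain TPM). Among all genes 8.73% were lower at 24 h and 50.5% at 144 h, 66.3% with the block. *Hist1h2bc* was at 1026 and 791 TPM at 0 h, then 453 and 491 at 24 h and finally 377 and 390 by 144 h, with no overlap (−1.23 at 144 h, adjusted p = 0.0018, but −0.20 and adjusted p = 0.516 on plain TPM). *Hist2h2be* was at 0.918 and 1.54 TPM at 0 h and 0.680 and 0.725 at 144 h (−0.38, adjusted p = 0.364, 0.09 on plain TPM). *Hist3h2a* (−0.72, adjusted p = 0.0926, 0.30 on plain TPM) and *Hist4h4* (−0.64, adjusted p = 0.0529, 0.38 on plain TPM) did not pass, but did with the block within genotype (adjusted p = 0.015 and 0.0144). *Hist4h4* also passed with the block across all libraries (adjusted p = 0.0414). The 3 members known from testis, *Hist1h1t*, *Hist1h2aa* and *Hist1h2ba*, were all called lower at 144 h, as were 50.5% of all genes, *Hist1h1t* by 1.27 on the log2 scale (adjusted p = 0.00256) from 57.0 and 40.9 TPM to 16.9 and 22.3 TPM. On plain TPM *Hist1h1t* was at −0.27 (adjusted p = 0.405) and *Hist1h2aa* at −0.33 (adjusted p = 0.303), so neither was called, whereas *Hist1h2ba* was (−0.66, adjusted p = 0.0272).

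Genes that make and process histone mRNA were described from a list of 23 symbols, of which 22 were in the data and all of these were tested. At 24 h in wild type 7 of 22 were called lower and none higher, and at 144 h 16 of 22 (median −1.04, but −0.02 on plain TPM), where 8.73% and 50.5% of all genes were called lower. With the block within genotype 12 were lower at 24 h (25.7% of all genes). On plain TPM 10 were lower (14.1%) against 5 higher (15.8%) at 24 h, with 7 (11.7%) against 3 (15.6%) by 144 h. In DKO 12 were lower at 24 h (18.7% of all genes) and none at 72 h (2.95%), where 7 had an unadjusted p under 0.05 (19.7% of all genes) and 6 were lower with the block (13.2%). *Slbp*, the stem-loop binding protein, was at 253 and 241 TPM in wild type at 0 h, 118 and 133 at 24 h, then 153 and 131 at 72 h and finally 101 and 93.4 by 144 h. All treated libraries were below those at 0 h, and it was called at 24 h (−0.97, adjusted p = 0.0275) and at 144 h (−1.34, adjusted p = 0.00103). In DKO *Slbp* was at 324 and 320 TPM at 0 h, then 180 and 108 at 24 h and finally 212 and 161 by 72 h. *Lsm10*, a protein of the U7 snRNP ring, fell by 1.17 at 24 h (adjusted p = 0.0332) and by 1.47 at 144 h (adjusted p = 0.0024). *Zfp473*, which encodes a zinc finger protein of the U7 complex, was called at 144 h (−1.35, adjusted p = 0.00135, but −0.35 and adjusted p = 0.0696 on plain TPM).

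Genes of the transcription side and the other processing genes had the following values. *Npat*, the histone locus body protein, was at −0.46 at 144 h (adjusted p = 0.189, 0.54 on plain TPM) and at 0.08 at 24 h (adjusted p = 0.895). *Hinfp*, a factor that binds H4 promoters, was at −0.73 at 144 h (adjusted p = 0.0644, 0.0118 with the block, 0.27 on plain TPM). *Casp8ap2*, or FLASH, was called at 144 h (−0.75, adjusted p = 0.0342, 0.26 on plain TPM), and the U7 ring gene *Lsm11* was not (−0.64, adjusted p = 0.166, 0.0216 with the block, 0.22 on plain TPM). *Eri1*, the exonuclease that trims the histone stem-loop, was at −0.83 (adjusted p = 0.0321, 0.18 on plain TPM). With no filter on low values neither *Casp8ap2* (adjusted p = 0.0624) nor *Eri1* (adjusted p = 0.0777) was called.

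Of 15 tested genes of histone mRNA decay, 5 were called lower at 24 h and 13 at 144 h in wild type, with a median of −1.02 at 144 h (−0.0024 on plain TPM). The largest fall was that of *Dcp2*, the decapping enzyme (−1.74 at 144 h, adjusted p = 0.000271). Of 24 histone chaperone genes 3 were lower at 24 h and 19 at 144 h, led by the acetyltransferase gene *Hat1* (−1.73 at 144 h, adjusted p = 0.000829). Of 39 genes of S phase and DNA replication, 11 were lower at 24 h and 36 at 144 h (median −1.19). The largest fall at 144 h was that of *Rrm2*, a subunit of ribonucleotide reductase (−2.12, adjusted p = 4.6e-05), and the largest at 24 h was that of the cyclin E gene *Ccne1* (−2.52, adjusted p = 2.9e-05). On plain TPM 7 decay, 9 chaperone and 20 S phase genes were called lower at 24 h (14.1% of all genes), against 3, 2 and 2 called higher (15.8%). By 144 h that scale gave 3, 7 and 10 lower calls in the same order of lists (11.7%), against 3, 4 and 3 higher calls (15.6%). On the spike-in scale none of these 3 lists held a gene called higher at either time, and 8.73% and 50.5% of all genes were called lower at these times. With the block within genotype the counts at 24 h were 8 of 15 decay genes, 13 of 24 chaperone genes and 21 of 39 S phase genes, beside 25.7% of all genes.

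Histone variants that are made outside S phase were described as a list of 12. Of the 11 tested, 5 were called lower at 144 h in wild type (7 with the block) and none higher, beside 50.5% of all genes lower (66.3% with the block). On plain TPM 1 was lower (11.7% of all genes) and 3 were higher (15.6%) at 144 h. *H2afz* (H2A.Z) was lower at 24 h (−1.57, adjusted p = 0.00109) and at 144 h (−1.58, adjusted p = 0.000242, but −0.55 and adjusted p = 0.0563 on plain TPM), whereas its paralogue *H2afv* was at −0.41 (adjusted p = 0.215, 0.61 on plain TPM). *H2afj* (−1.73, adjusted p = 0.000243), the macroH2A gene *H2afy2* (−1.42, adjusted p = 0.00375, but −0.42 and adjusted p = 0.0617 on plain TPM), the linker histone gene *H1f0* (−0.96, adjusted p = 0.0185, 0.0648 with no filter, 0.04 on plain TPM) and *H2afx* (−0.74, adjusted p = 0.0259, 0.29 on plain TPM) were also called. The H3.3 genes *H3f3a* (−0.51, adjusted p = 0.156, 0.52 on plain TPM) and *H3f3b* (−0.68, adjusted p = 0.0627, 0.0134 with the block, 0.35 on plain TPM) were not, nor was the macroH2A gene *H2afy* (−0.18, adjusted p = 0.733, 0.83 on plain TPM). The centromeric H3 gene *Cenpa* was at −0.72 (adjusted p = 0.0618, 0.00904 with the block, 0.31 on plain TPM). *H1fx* is listed at 0 in 4 libraries, 1 of them at 144 h, and is given no fold, and *H1foo* was not tested.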

How the data were processed

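RNA-seq of E14 ES cells comprised 14 libraries in 7 groups of 2, of which 8 were wild type and 6 were labelled *Tet1/2* DKO. Per the labels and the study's methods, RNA of sorted cells was spiked with ERCC transcripts and depleted of ribosomal RNA, and the authors trimmed reads with cutadapt, mapped them with STAR (mm10) and obtained transcript abundances from StringTie with GENCODE VM19. The deposited values are TPM, which sum to 1000000 in each library. TPM keep no depth, so the depth is unknown and no counting error is given.

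Deposited TPM were summed per gene identifier and multiplied by a library factor, the median ratio of the study's spike-in normalized table to the deposited TPM for those of its first 1999 entries that reached 1 TPM. Within a library this ratio varied by at most 0.000484%. Genes were kept when their mean reached 1 spike-in normalized TPM (18232 of 38890 above 0), and log2(TPM + 1) of all groups was fitted together in limma 3.58.1 (R 4.3.3, empirical Bayes with trend) without a block. Fold changes are on the log2(TPM + 1) scale and understate the change of low genes. Errors of fold changes are standard errors. Each p is two-sided and adjusted by Benjamini-Hochberg over all 18232 genes, with a threshold of 0.05. The labels call the libraries replicates without saying what was separate. The study's reporting summary states that each experiment was repeated independently and refers to biological replicates. Which steps were separate for these libraries is not given, so p-values measure the spread between these samples, which may be in part technical.

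Same-numbered libraries deviated together within DKO (correlations 0.222 to 0.341) and in 5 of 6 pairs of wild-type groups (the exception, 0 h with 144 h, was at 0.0622), and per the study's reporting summary all times of 1 replicate were handled in parallel. The numbers therefore pair libraries within a genotype, not across genotypes, and a fit blocked in that way was an alternative.

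The genes and lists were chosen with earlier results of these data known. Named genes are the 3 most abundant of each class, the 2 largest fitted values in each direction for wild type at 24 and 144 h, DKO at 72 h and DKO against wild type at 72 h, the polyadenylated and testis members, 8 processing genes, the called gene with the largest change in each other list, all variants, *Tet1* and *Tet2*. Other genes, such as those listed as called, members of pairs and copies of chr3, and values of named genes in further comparisons, were chosen after their values were seen. Promoters came from RefSeq (GRCm38.p6, all 70 members matched, 62 with a promoter window). Transcripts came from GENCODE M21, whose identifiers and coordinates were the same for 70 of 70 members. Alternatives were plain TPM, median-centred TPM, a pseudocount of 0.1, no filter, blocks on the replicate number and leaving out each library. Among these, the share of all genes called was taken for plain TPM and the block within genotype only. Member counts under the other alternatives therefore cannot be set against all genes.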

Additional observations from a re-analysis of the deposited data

How the results depend on the processing

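With plain TPM, 7 histone genes were called higher in wild type at 24 h, 5 higher and 5 lower in wild type at 144 h, 21 lower in DKO at 24 h and 28 lower in DKO at 72 h. With libraries centred on their median, 4 were higher at 24 h, 17 lower at 72 h, and 1 higher and 7 lower at 144 h in wild type, 24 were lower at 24 h and 34 at 72 h in DKO, and 0 were higher in DKO against wild type at 72 h. The log2 ratio of summed histone TPM was −0.061, −0.10 and 0.18 on plain TPM in wild type at 24, 72 and 144 h (−0.14, −0.21 and 0.057 when median-centred), −0.37 and −0.39 in DKO at 24 and 72 h (−0.45 at 24 h when median-centred), and, between the lines, 0.38 at 0 h and 0.085 at 72 h (0.34 and −0.028 when median-centred). On the spike-in scale those 5 time ratios were −0.43, −0.52, −0.85, −0.91 and −0.69.

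With no filter on low values the counts called lower were 3, 2 and 32 in wild type at 24, 72 and 144 h and 22 and 2 in DKO at 24 and 72 h, with 0 higher in DKO against wild type at 72 h. More genes were tested then, which the adjustment counts. The share of all genes called was not taken for that fit, nor for the median-centred one or those that leave out 1 library. With a pseudocount of 0.1, 1 gene was higher in DKO at 24 h and 0 in DKO against wild type at 72 h. With the replicate block within each genotype 24 were lower at 24 h and 31 at 72 h in wild type, 39 were lower in DKO at 72 h, and 1 was higher in DKO at 24 h and at 72 h. The block across all libraries made none of these counts move by more than 1.5 times. Of the 60 gene values tested, it changed 2 calls, and the block within genotype 9 of 54, all gained. The other counts and sums, under these alternatives, moved by less than 1.5 times or 1 SD.

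Leaving out 1 library at a time, where a lone library is assumed to vary like the other groups, gave 1 to 23 genes called lower in wild type at 24 h, 0 to 23 at 72 h and 19 to 60 at 144 h, and 16 to 67 in DKO at 24 h and 0 to 35 at 72 h. At 24 h in wild type the count was 1 without WT 0 h replicate 1 or WT 24 h replicate 1, 3 without WT 0 h replicate 2, 6 without WT 24 h replicate 2 and 23 without either DKO 24 h library. At 72 h it was 2 and 1 without WT 0 h replicates 1 and 2, 7 and 0 without WT 72 h replicates 1 and 2, and 23 without either DKO 24 h library. At 144 h it was 24 and 29 without WT 0 h replicates 1 and 2 and 26 and 19 without WT 144 h replicates 1 and 2. In DKO at 24 h it was 18 and 20 without DKO 0 h replicates 1 and 2 and 67 and 16 without DKO 24 h replicates 1 and 2. In DKO at 72 h it was 8 without either WT 0 h library, 6 without either WT 144 h library, 2 and 3 without DKO 0 h replicates 1 and 2, 35 without either DKO 24 h library, and 5 and 0 without DKO 72 h replicates 1 and 2.

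For genes called higher the range was 0 to 1 in DKO at 24 h and at 72 h, 0 to 4 in DKO against wild type at 72 h (4 without either DKO 24 h library, 0 without any WT 72 h, WT 144 h or DKO 72 h library), and 0 to 1 for the response at 24 h and at 72 h. The 1 gene higher in DKO at 24 h came without any of the libraries WT 0 h, WT 24 h, WT 144 h, DKO 0 h replicate 1 or DKO 24 h replicate 2, and that at 72 h and in both responses without DKO 0 h replicate 1. In DKO against wild type at 0 h 0 to 1 were lower (1 without DKO 0 h replicate 1). The log2 ratio of sums ranged from −0.53 to −0.34, −0.77 to −0.31 and −0.93 to −0.77 in wild type at 24, 72 and 144 h, from −1.22 to −0.65 and −0.88 to −0.52 in DKO at 24 and 72 h, and from 0.58 to 0.75, −0.13 to 0.44 and 0.28 to 0.75 in DKO against wild type at 0, 24 and 72 h (−0.13 without DKO 24 h replicate 1).

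Of the 60 gene values, 29 turned sign on plain TPM and 26 when median-centred, all of them in wild type at 144 h. The values on plain TPM and, in brackets, median-centred were 0.12 (0.012) for *Hist1h1a*, 0.18 (0.068) for *Hist1h1c*, 0.57 (0.45) for *Hist2h2aa2*, 0.35 (0.24) for *Hist1h2ak*, 0.11 (0.00028) for *Hist1h2ab*, 0.23 (0.12) for *Hist1h2bg*, 0.29 (0.18) for *Hist1h3h*, 0.81 (0.70) for *Hist1h3e*, 0.20 (0.091) for *Hist1h3i*, 0.74 (0.63) for *Hist1h4k*, 0.36 (0.25) for *Hist1h4n*, 0.49 (0.38) for *Hist1h4h*, 0.77 (0.66) for *Hist1h3f*, 0.30 (0.18) for *Hist3h2a* and 0.38 (0.26) for *Hist4h4*. Among the other genes they were 0.54 (0.43) for *Npat*, 0.26 (0.14) for *Casp8ap2*, 0.27 (0.16) for *Hinfp*, 0.22 (0.11) for *Lsm11*, 0.18 (0.063) for *Eri1*, 0.83 (0.72) for *H2afy*, 0.35 (0.23) for *H3f3b*, 0.31 (0.19) for *Cenpa*, 0.61 (0.49) for *H2afv*, 0.29 (0.18) for *H2afx* and 0.52 (0.40) for *H3f3a*. On plain TPM alone *Hist1h1b* was at 0.037, *Hist2h2be* at 0.092 and *H1f0* at 0.044. A single library turned the sign of *Hist1h4k* in wild type at 144 h (range −0.58 to 0.012, the latter without WT 0 h replicate 1), of *Hist2h2aa1* (−2.48 to 0.55) and *Hist2h3c1* (−1.59 to 0.14) in DKO against wild type at 72 h, the upper ends without DKO 72 h replicate 2, and of *Tet1* at 0 h (−0.23 to 0.061, the latter without DKO 0 h replicate 2). The cause was not tested. The depth behind the values is unknown.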

Other observations

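By genomic location, the summed histone TPM of the 56 chr13 genes, *Hist1h2al* included, in wild type at 24 h was 0.743 of the 0 h level, that of the chr3 cluster 0.701, that of the 3 genes on chr11 1.02 and that of *Hist4h4* 0.896 (plain TPM, 0.964, 0.895, 1.31 and 1.16). At 72 h the chr11 genes were at 0.484 (plain TPM, 0.649) and the chr13 genes at 0.695. In DKO against wild type at 0 h the ratio of sums was 1.61 for the chr13 genes, 1.25 for the chr3 cluster, 1.92 for the chr11 genes and 1.47 for *Hist4h4* (plain TPM, 1.32, 1.02, 1.55 and 1.21). These sums carry no test, and those of chr11 rest on 3 genes.

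The spike-in factors of the 14 libraries ran from 1 (WT 144 h replicate 2) to 2.81 (DKO 0 h replicate 1). Each equals 76 divided by a whole number between 27 and 76, within a relative tolerance of 0.001. Both wild-type 0 h libraries had the number 36, and those at 144 h had 71 and 76.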
